A study of Mus musculus with 8 samples.

Results

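The 5-hydroxymethylcytosine (5hmC) peak lists of 2 reprogramming methods, OSNK and OySyNyK, were compared at D1, read as day 1. The comparison used 217253 of the 684512 peaks in the series, 116302 from the OSNK D1 library and 100951 from the OySyNyK D1 library. A peak was shared when it overlapped a peak of the other D1 list by at least 1 bp, and method-specific when it did not. This gave 41869 OSNK-specific peaks, 36.0% of their list (95% interval 35.7 to 36.3), and 25050 OySyNyK-specific peaks, 24.8% of theirs (24.5 to 25.1). The remaining 74433 OSNK and 75901 OySyNyK peaks were shared. Which peaks are specific follows from the rule itself, so these 2 percentages are a description.

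The series holds 8 mouse libraries with 1 library in each group: embryonic fibroblasts (MEF), each method on D1, D3 and D5, and an induced pluripotent stem cell (iPSC) sample. The labels' growth protocol names OG2-MEFs, and the medium for making iPSCs held vitamin C and leukemia inhibitory factor, so both D1 groups share these. From the published study, OSNK stands for the factors Oct4, Sox2, Nanog and Klf4, and OySyNyK for a set in which the first 3 each carry a YAP transactivation domain, with unmodified Klf4 in both. The title of the iPSC sample carries the OySyNyK factor names. The labels do not say how the factors were delivered, what D1 is counted from or how many cultures a library holds. The D1 libraries are bulk DNA, so a peak carried by fewer cells and a peak carried at a lower level per cell cannot be told apart.

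5hmC is made from 5-methylcytosine by the TET dioxygenases, TET1, TET2 and TET3, and is a step on the way to unmethylated cytosine. It is found over gene bodies and distal regulatory elements, and its pattern differs between cell types. When fibroblasts are turned into pluripotent cells, 5hmC is lost at some sites of the fibroblast pattern and gained at sites that are later active or demethylated in pluripotent cells.

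Peak numbers over all 8 lists ranged from 54938 to 116302, covered length from 41.1 to 98.2 Mb and median peak score from 71.0 to 105. The lowest score was 50 in every list. The OSNK D1 list was the longest and had the highest median score, 105 against 95.8 for OySyNyK D1. It covered 91.9 Mb, against 76.9 Mb. Read numbers were not used here, so depth is unknown. No test is possible with 1 library a side, and the intervals given are exact binomial ones that cover counting error only, taking peaks as independent, which neighbouring peaks are not.

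Method-specific peaks were weaker and narrower than shared ones in both lists. The score is the authors' value for each peak and is larger for a peak that stands out more from background. OSNK-specific peaks had a median score of 72.6 with quartiles of 59.1 and 99.3, against 142 for the shared peaks of the same list with quartiles of 87.3 and 246. OySyNyK-specific peaks had a median of 66.7 with quartiles of 56.9 and 85.6, against 115 for shared peaks with quartiles of 75.6 and 191. The specific medians were 0.513 and 0.578 times the shared medians. Scores below 60 were held by 27.3% of OSNK-specific and 34.6% of OySyNyK-specific peaks, against 7.56% and 10.7% of shared peaks.

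Widths went the same way. Median width was 575 bp for OSNK-specific and 774 bp for shared OSNK peaks, and 560 bp for OySyNyK-specific and 704 bp for shared OySyNyK peaks. Only 5.65% of OSNK-specific and 6.26% of OySyNyK-specific peaks were 1000 bp wide or more, against 27.0% and 21.6% of the shared peaks. A wide peak has more bases with which to meet another, so width bears on membership. Width also follows score. Within the score range of 60 to under 80, median widths were 553 bp for OSNK-specific against 611 bp for shared peaks. In the OySyNyK list they were 552 against 564 bp. From 100 to under 150 the values were 681 against 730 bp in the OSNK list and 714 against 711 bp in the OySyNyK list. In each higher range OSNK-specific peaks were still the narrower ones, but OySyNyK-specific peaks were wider than shared ones. At like score, narrower specific peaks were thus not seen throughout the OySyNyK list.

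The higher a peak's score, the less often it was specific, and the OSNK list held the larger specific share in each of 7 score ranges. Among peaks scoring 50 to under 60, 67.0% of OSNK peaks (95% interval 66.3 to 67.7) and 51.6% of OySyNyK peaks (50.8 to 52.4) had no counterpart. From 100 to under 150 the shares were 31.0% and 14.7%. At 300 or more they were 1.64% of 13799 OSNK peaks and 0.268% of 8208 OySyNyK peaks, which left 226 and 22 strong peaks seen with 1 method. Scores of separate libraries need not mean the same amount of 5hmC. Over the 67664 peaks that paired with exactly 1 peak of the other list, the OSNK score was a median 1.20 times the OySyNyK score, with an 80% range of 0.623 to 2.27, and OSNK was higher in 64.3%.

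**Figure D1:**
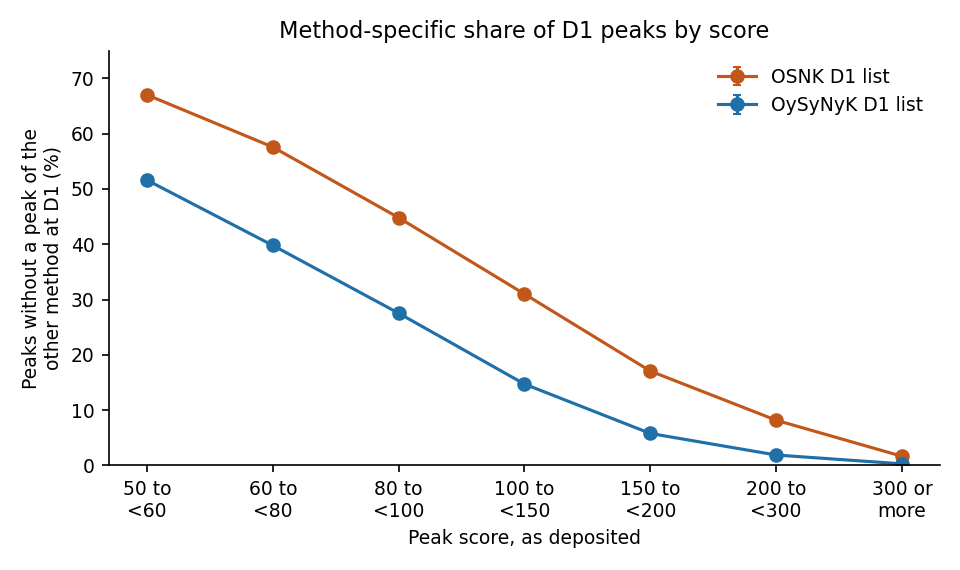
Share of the peaks of each D1 list without an overlapping peak in the other D1 list (vertical axis, percent) by range of the deposited peak score (horizontal axis), with exact 95% intervals mostly smaller than the points. The share goes from 67.0% to 1.64% in the OSNK list and from 51.6% to 0.268% in the OySyNyK list.

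Few peaks sat at the edge of the rule. In the OSNK list 220 shared peaks overlapped by 50 bp or less and 376 specific peaks had a gap of under 50 bp, with median scores of 71.0 and 71.6. In the OySyNyK list these numbers were 236 and 363, with median scores of 65.3 and 65.7. A peak of the other method lay within 1000 bp of 8261 OSNK-specific peaks, 19.7%, and of 6611 OySyNyK-specific peaks, 26.4%. With peaks within 1 kb taken as overlapping, the specific shares were 28.9% and 18.3%.

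OySyNyK-specific peaks lay closer to shared peaks than OSNK-specific ones did. The median distance to the nearest shared peak of the same list was 6669 bp for OSNK-specific and 4269 bp for OySyNyK-specific peaks, with upper quartiles of 20925 and 12350 bp. Within 5 kb lay 43.5% and 53.8%, and within 100 kb 94.4% and 98.2%. Beyond 50 kb from any shared peak were 4908 OSNK-specific peaks, 11.7%, and 1254 OySyNyK-specific peaks, 5.01%. The distant peaks had slightly lower scores, with medians of 71.0 and 62.5, against 73.2 and 67.8 for those within 1 kb. The OySyNyK-specific median was below the OSNK-specific one under each of the 8 alternatives, and the medians were 11913.5 and 7496 bp with a score of at least 100.

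The balance between the sets depended on how many shared peaks a part of the genome held. The genome was divided into windows of 1 Mb, of which 2412 had a D1 peak. In the 761 windows with fewer than 10 shared peaks there were 4486 OSNK-specific and 997 OySyNyK-specific peaks, a ratio of 4.50. The ratio went down over each denser class, through 2.76, 1.90, 1.46 and 1.37, to 1.05 in the 153 windows with 80 or more shared peaks, where the sets numbered 4714 and 4475. Over the whole genome the ratio was 1.67. With equal numbers of peaks from the D1 lists it went from 2.66 in the sparsest windows to 0.702 in the densest, around a value of 1.06 overall. OySyNyK-specific peaks thus outnumbered OSNK-specific peaks in dense windows only once the lists were made equally long.

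**Figure D2:**
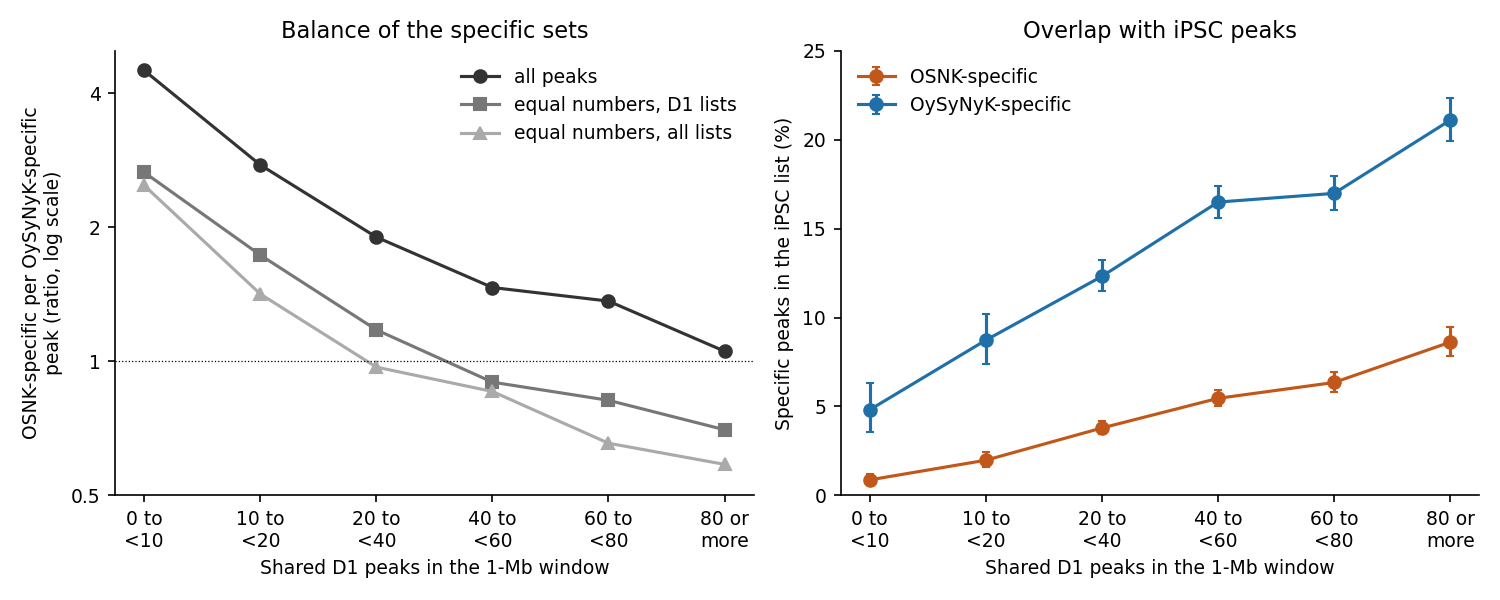
Left, OSNK-specific peaks per OySyNyK-specific peak (vertical log axis) in 1-Mb windows grouped by their number of shared D1 peaks (horizontal axis), with all peaks and with equal numbers of peaks; the dotted line marks a ratio of 1. Right, the share of each specific set that overlaps the iPSC list in the same windows with exact 95% intervals. The ratio goes from 4.50 to 1.05 with all peaks, and the iPSC share of OySyNyK-specific peaks is the higher one in every class.

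The balance also differed between chromosomes, whose density of shared peaks was not taken. On autosomes the specific share of OSNK peaks ranged from 30.7% on chromosome 11 to 39.3% on chromosome 6, and that of OySyNyK peaks from 21.3% on chromosome 16 to 26.7% on chromosome 4. Where the OSNK share was high the OySyNyK share tended to be low: chromosome 3 had 38.9% and 21.9%, and chromosome 11 had 30.7% and 26.7%. The ratio of OSNK-specific to OySyNyK-specific peaks was therefore 2.24 on chromosome 3 and 1.20 on chromosome 11, and 1.44 and 0.757 with equal numbers from the D1 lists. The X chromosome had the largest specific shares, 57.9% of 978 OSNK peaks (95% interval 54.7 to 61.0) and 34.4% of 634 OySyNyK peaks (30.7 to 38.2). X held few peaks in either list, and leaving it out changed the genome-wide specific shares to 35.8% and 24.8%.

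**Figure D3:**
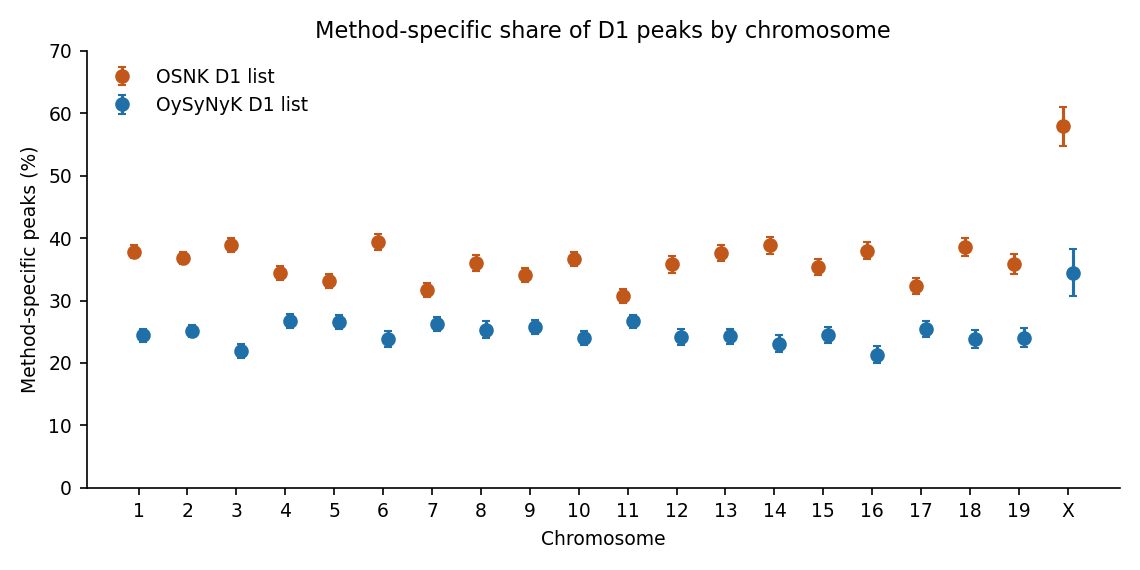
Specific share of each D1 list (vertical axis, percent) on each chromosome (horizontal axis), with exact 95% intervals. OSNK lies above OySyNyK on every chromosome, and X stands apart with 57.9% and 34.4%.

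Along the chromosomes, OySyNyK-specific peaks were more often near the distal end. The last 10% of the sequence, measured to the last peak of any list, held 15.9% of OySyNyK-specific peaks (95% interval 15.4 to 16.4) and 11.4% of OSNK-specific peaks (11.1 to 11.7), with 14.8% of the shared peaks of either list between them. The first 10% held 4.81% and 6.45%, and 5.23% and 5.20% of the shared OSNK and OySyNyK peaks. With equal numbers from the D1 lists the distal shares were 15.8% and 11.3%.

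OSNK-specific peaks also came in longer runs. After the D1 lists were merged into regions along the genome, 59.6% of OSNK-specific regions had an OSNK-specific region as a direct neighbour, against 38.4% of OySyNyK-specific regions with one of their own kind. Runs of 5 or more numbered 796 and 77, and runs of 10 or more 52 and 0. A longer list gives longer runs, and this was not separated. The longest OSNK-specific run was 20 regions over 916 kb of chromosome 3 (24595198 to 25510786). On chromosome 5 a run of 18 regions spread over 4659 kb (58472341 to 63131568), with no shared and no OySyNyK-specific region among them. The longest OySyNyK-specific run was 8 regions over 142 kb of chromosome 11 (50550664 to 50692714).

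The sets differed in how often their peaks were found later. Of all OSNK D1 peaks, 58.9% were overlapped at OSNK D3 and 46.7% at OSNK D5, and 47.3% and 31.7% at OySyNyK D3 and D5. The OSNK-specific peaks lay below each value. At OSNK D3, 39.5% were present (95% interval 39.0 to 39.98), and at OSNK D5 28.3% (27.9 to 28.8). In the OySyNyK lists only 16.8% (16.4 to 17.1) were found at D3 and 10.3% (9.99 to 10.6) at D5. A peak seen with OSNK and not with OySyNyK at D1 therefore seldom appeared later with OySyNyK.

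OySyNyK-specific peaks behaved differently. Of all OySyNyK D1 peaks, 60.5% and 41.1% were overlapped at OySyNyK D3 and D5, and 60.2% and 50.8% at OSNK D3 and D5. For the OySyNyK-specific peaks the own-method values were 49.2% (95% interval 48.6 to 49.9) and 34.4% (33.8 to 34.9). The OSNK lists held 30.6% (30.1 to 31.2) of them at D3 and 33.3% (32.7 to 33.8) at D5. By D5 the OSNK list thus contained nearly as many OySyNyK-specific D1 peaks, 8331, as the OySyNyK list itself, 8605.

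**Figure D4:**
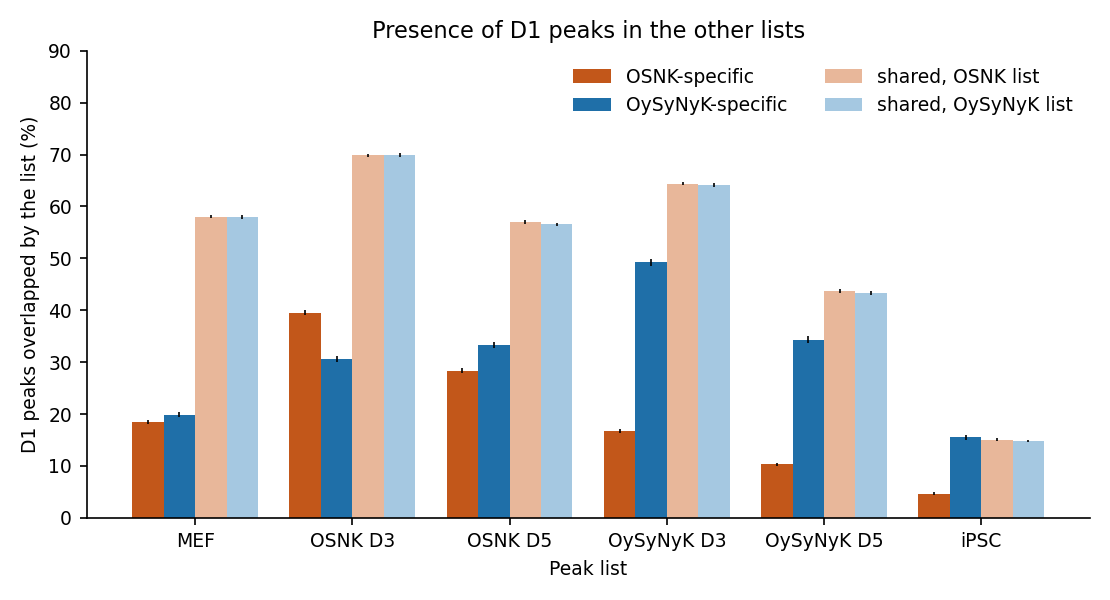
Share of D1 peaks (vertical axis, percent, bars from 0) overlapped by each of the other 6 lists (horizontal axis), for the OSNK-specific, OySyNyK-specific and both shared sets, with exact 95% intervals. OSNK-specific peaks reach 39.5% at OSNK D3 and 10.3% at OySyNyK D5, while OySyNyK-specific peaks reach 33.3% at OSNK D5 and 34.4% at OySyNyK D5.

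Set as differences over the same peaks, OSNK-specific peaks were present more often with their own method by 22.7 percentage points at D3 (95% interval 22.3 to 23.1) and 18.1 at D5 (17.7 to 18.4). OySyNyK-specific peaks were present more often with their own method by 18.6 points at D3 (17.97 to 19.2) and by 1.09 at D5 (0.436 to 1.75). The D5 value of 1.09 turned to -0.944 with a score of at least 100 in all 8 lists. It was -0.543 with peaks of 500 bp and -0.0470 with equal numbers from the D1 lists. With equal numbers from all 6 intermediate lists it was 6.47. The score cut redefined the set, to 10801 OySyNyK-specific peaks, where 3722 of the main set scored 100 or more. In each score range of those 3722, OySyNyK D5 held the larger share, with 51.9% against 48.7% at 100 to under 150. The OSNK D5 list was the longer one, with 92762 peaks against 70592 at OySyNyK D5. Shared peaks give the same differences for peaks found with both methods at D1, but they score higher than specific ones. Shared OSNK peaks were present more often with OSNK by 5.42 points at D3 and 13.3 at D5, and shared OySyNyK peaks less often with OySyNyK, with differences of -5.74 and -13.2. These values depended on score. At 50 to under 60, OSNK D3 held 43.2% of shared OSNK peaks and OySyNyK D3 held 48.5%. For shared OySyNyK peaks of that range the values were 48.3% and 34.6%. In that range the shared peaks of each list were thus present less often with their own method at D3. A score range is set by the peak's own list, and the score of its counterpart was not matched. Shared peaks of a range are therefore not a baseline of like score in both lists.

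The order of days also differed. From D3 to D5, presence in the OSNK lists changed by -13.4 points for shared OySyNyK peaks and by -11.2 points for OSNK-specific peaks. For OySyNyK-specific peaks it changed by 2.62 points (95% interval 2.03 to 3.21). This value was 5.50 points with peaks of 500 bp, 0.0238 with equal numbers from all 6 lists and -0.917 with a score of at least 100. Median peak width was largest in the OSNK D3 list, at 911 bp. Over the same days, presence in the OySyNyK lists changed by -6.51 points for OSNK-specific peaks and by -14.9 points for OySyNyK-specific ones.

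Taken peak by peak, 49.2% of OSNK-specific peaks (20612) and 35.4% of OySyNyK-specific peaks (8871) were in no later list of either method. Over all peaks of the OSNK and OySyNyK D1 lists these values were 28.6% and 21.6%, and 17.0% for the shared peaks of either list. Peaks found later with their own method only made up 30.0% and 21.3% of the specific sets, against 20.2% and 11.2% of all peaks. Those found later with both methods made up 16.1% of OSNK-specific and 33.9% of OySyNyK-specific peaks, against 44.5% and 53.6% of all peaks. At least 1 later list of the other method held 20.8% of OSNK-specific peaks (95% interval 20.4 to 21.2) and 43.3% of OySyNyK-specific peaks (42.7 to 43.9). For all peaks of the D1 lists this share was 51.2% and 67.2%, so the full lists already differed in the same direction.

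All 4 later lists held 1750 OSNK-specific peaks, 4.18%, and 3079 OySyNyK-specific peaks, 12.3%, against 22.4% and 27.2% of all peaks. A difference that lasted, in both later lists of the own method and neither of the other, was seen for 4793 OSNK-specific peaks, 11.4%, and 1977 OySyNyK-specific peaks, 7.89%. Over all peaks the shares were 7.50% and 3.56%. The reverse, both later lists of the other method and neither of the own, was seen for 273 and 599 peaks, 0.652% and 2.39%, against 1.60% and 4.59% of all peaks.

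Over whole sets, overlap with MEF differed by less than overlap with the iPSC sample, whose title carries the OySyNyK factor names. The series holds no iPSC sample titled with the OSNK factors. Nearness to iPSCs in general and nearness to cells made with OySyNyK therefore cannot be told apart, here or in the iPSC values below. The MEF list overlapped 18.4% of OSNK-specific peaks (95% interval 18.0 to 18.8) and 19.9% of OySyNyK-specific peaks (19.4 to 20.4), well below the 43.8% and 48.6% of all peaks of these lists. The iPSC list overlapped 4.69% (4.49 to 4.89) of OSNK-specific peaks, below the 11.3% of all OSNK D1 peaks. It overlapped 15.5% (15.1 to 15.98) of OySyNyK-specific peaks, where all OySyNyK D1 peaks gave 15.0%. With all scores pooled, OySyNyK-specific peaks, with a lower median score than shared ones, met iPSC peaks about as often as shared peaks did. The shared peaks gave 15.0% and 14.8% in the OSNK and OySyNyK lists. Within every score range OySyNyK-specific peaks met iPSC peaks more often than shared peaks of their own list did. The iPSC share was higher for OySyNyK-specific than for OSNK-specific peaks on 19 of 19 autosomes, with ranges of 4.26% to 25.1% and 1.26% to 8.58%.

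Since OySyNyK-specific peaks lay in denser parts of the genome, the iPSC share was also taken within windows of like density. In windows with fewer than 10 shared peaks 4.81% of OySyNyK-specific and 0.869% of OSNK-specific peaks met one. In windows with 80 or more shared peaks the values were 21.1% and 8.61%. The OySyNyK-specific value was the higher one in all 6 density classes. It was also higher at every distance from the nearest shared peak, with 16.1% against 5.99% within 1 kb and 8.05% against 1.87% beyond 50 kb.

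Score set the sets further apart. Among OSNK-specific peaks the iPSC share was 4.57% (95% interval 4.195 to 4.97) at 50 to under 60 and 4.36% (3.89 to 4.86) at 100 to under 150. It was higher in the strongest ranges, with 5.85% (4.87 to 6.95) at 150 to under 200 and 6.57% (5.13 to 8.27) at 200 to under 300. At 300 or more it was 7.96% (4.79 to 12.3). The intervals at 150 to under 200 and at 300 or more overlap that at 50 to under 60. Among OySyNyK-specific peaks the iPSC share was 11.4% (10.7 to 12.1) at 50 to under 60 and 23.0% (21.5 to 24.5) at 100 to under 150. It was 54.5% (32.2 to 75.6) at 300 or more, which held only 22 peaks. In the range of 200 to under 300 the shares were 44.4% of 180 OySyNyK-specific peaks and 6.57% of 1020 OSNK-specific peaks. Shared peaks of that range lay between, at 15.0% in the OSNK and 21.5% in the OySyNyK list. At 50 to under 60 shared peaks gave 12.4% and 6.93%, the first of which was above the 11.4% of OySyNyK-specific peaks.

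Presence at D5 with the other method followed the same lines. The OySyNyK D5 list held 8.90% of the weakest and 21.7% of the strongest OSNK-specific peaks. For shared OSNK peaks of these ranges it held 32.1% and 71.3%. The longer OSNK D5 list held 25.1% of the weakest and 77.3% (95% interval 54.6 to 92.2) of the strongest OySyNyK-specific peaks, the latter only 22 peaks. For shared OySyNyK peaks it held 34.6% and 92.1%. In their own method, strong specific peaks were mostly present later, as strong shared peaks were. From 200 to under 300, 85.9% of OSNK-specific peaks were present at OSNK D3 and 62.3% at OSNK D5, and 98.3% and 86.7% of OySyNyK-specific peaks at OySyNyK D3 and D5. Shared peaks of that range gave 86.2% and 66.3% in the OSNK list, and 89.9% and 65.8% in the OySyNyK list. MEF overlap of OSNK-specific peaks was between 15.4% and 21.9% over the 7 score ranges. That of OySyNyK-specific peaks was the higher one in each range, from 16.5% in the weakest to 29.0% (95% interval 25.3 to 32.8) at 150 to under 200, where OSNK-specific peaks gave 21.2% (19.5 to 23.1), and 40.9% of the 22 strongest.

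**Figure D5:**
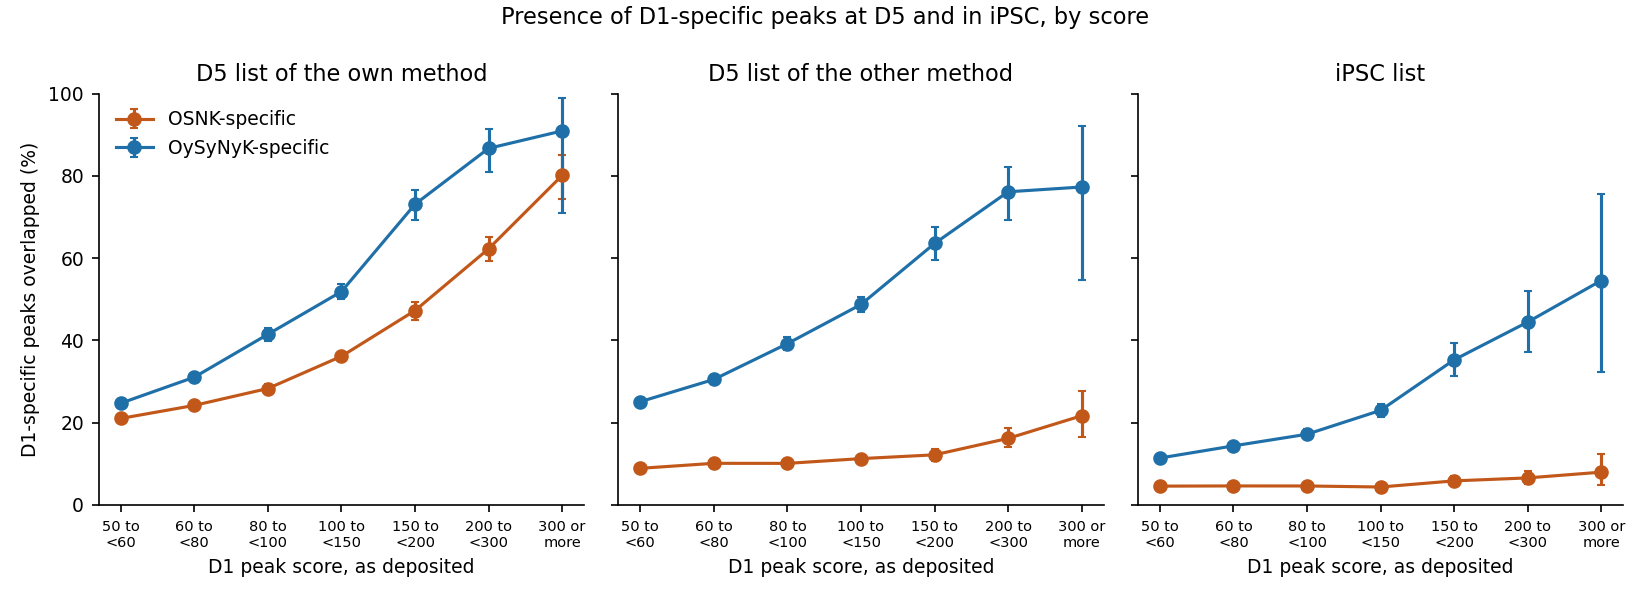
Share of D1-specific peaks (vertical axis, percent) overlapped by the D5 list of their own method (left), the D5 list of the other method (middle) and the iPSC list (right), by range of D1 score (horizontal axis), with exact 95% intervals. In the middle and right panels OSNK-specific peaks stay at or below 21.7% and 7.96%, and OySyNyK-specific peaks reach 77.3% and 54.5%.

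Classed by both end states, 78.3% of OSNK-specific peaks (32800) and 68.7% of OySyNyK-specific peaks (17221) were in neither MEF nor iPSC, against 37.4% and 37.5% of the shared OSNK and OySyNyK peaks. Peaks of iPSC that MEF lacked numbered 1367 among OSNK-specific (3.26%) and 2854 among OySyNyK-specific peaks (11.4%). Among the shared peaks of the same lists they made up 4.52% and 4.49%. Of the 2854, 79.2% were present at OySyNyK D3 and 71.9% at OySyNyK D5, and the OSNK lists held 43.7% at D3 (95% interval 41.9 to 45.6) and 53.0% at D5 (51.2 to 54.9). Of the 1367, the OSNK lists held 67.7% and 65.2%, and the OySyNyK lists 45.5% and 46.5%. Shared peaks of this class were present more often in each later list. Their lowest value was 79.3%, for shared OSNK peaks at OySyNyK D5, and their highest 89.0%, for shared OySyNyK peaks at OySyNyK D3. The class held least by the other method at D5 differed between the sets: for OSNK-specific peaks it was neither end state, with 8.30%, and for OySyNyK-specific peaks it was MEF without iPSC, with 21.5%.

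Peaks of MEF that iPSC lacked numbered 7107 among OSNK-specific (17.0%) and 3941 among OySyNyK-specific peaks (15.7%). Among the shared peaks of the same lists they made up 47.5% and 47.7%. Of the 7107, the OSNK lists held 25.6% and 16.2% at D3 and D5, and the OySyNyK lists 15.5% and 9.20%. Of the 3941, the OySyNyK lists held 35.4% and 23.95%, and the OSNK lists 22.2% and 21.5%. Shared peaks of this class were present more often. The OSNK lists held 65.7% and 50.4% of the shared OSNK ones, and the OySyNyK lists 60.6% and 39.1%. For the shared OySyNyK ones the OySyNyK lists held 60.5% and 38.6%, and the OSNK lists 65.9% and 49.95%. Peaks common to MEF and iPSC numbered 595 (1.42%) and 1034 (4.13%), against 10.5% and 10.3% of the shared peaks. At OySyNyK D5, 70.3% of the 1034 were present, against 82.1% of the shared OySyNyK peaks of this class.

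The highest-scoring OSNK-specific peaks had no MEF peak, and each was present at OSNK D3 and D5. Positions are those of the deposited lists, in a mouse assembly they do not name, and were not assigned to genes. On chromosome 14, positions 21854230 to 21854848 scored 754 at OSNK D1, 381 at D3 and 273 at D5, and 74.2 and 64.2 at OySyNyK D3 and D5. The second, chromosome 14 from 28611507 to 28612405, scored 697, 545 and 205 over the OSNK days and 189 and 60.4 in the later OySyNyK lists. The fifth, chromosome 10 from 13279690 to 13281004, scored 614, 710 and 236 with OSNK, 52.6 at OySyNyK D3 and 91.9 in iPSC. These 3 were thus absent with OySyNyK at D1 and present, with lower scores, on a later day.

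The other 2 were seen with OSNK on all 3 days and in no other list. They lie on chromosome 3 from 146663646 to 146664880, with scores of 647, 245 and 62.5, and on chromosome 8 from 8361361 to 8362937, with 644, 221 and 233. They also head the peaks kept by OSNK only, which go on with chromosome 9 from 111038644 to 111039798 (586, 318 and 104), chromosome 1 from 33551728 to 33552782 (521, 234 and 270) and chromosome 5 from 72658893 to 72660506 (514, 436 and 298). None of the 5 had a peak in MEF, iPSC or a later OySyNyK list. Those on chromosomes 9 and 1 lay 228 and 206 bp from the nearest OySyNyK D1 peak, while those on chromosomes 3, 8 and 5 were 28258, 8016 and 7918 bp from one.

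The highest-scoring OySyNyK-specific peaks also lacked a MEF peak, and 4 of the 5 were found in both later OSNK lists. On chromosome 11, positions 88557071 to 88558587 scored 392 at OySyNyK D1, 396 at D3 and 202 at D5, 143 and 377 at OSNK D3 and D5 and 148 in iPSC. On chromosome 9, positions 120023073 to 120025062 scored 387, 459 and 395 with OySyNyK and 296 and 417 in the later OSNK lists. On chromosome 19, positions 25410903 to 25412104 scored 384, 418 and 145, with 331 and 325 in the OSNK lists and 59.4 in iPSC. None of the 3 was overlapped by an OSNK D1 peak, but one lay 680 bp from the peak on chromosome 11, 121 bp from that on chromosome 9 and 4305 bp from that on chromosome 19. The OSNK D3 peak over the chromosome 9 position was 3289 bp wide. The fifth, chromosome 14 from 32832074 to 32832891, scored 378, 217 and 187, with 138 and 179 in the OSNK lists. The exception was chromosome 12 from 112331506 to 112332946, with 381 at OySyNyK D1, 115 at OySyNyK D3 and no peak in any other list.

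OySyNyK-specific peaks kept by their own method only were weaker. The strongest, chromosome 7 from 16697906 to 16699593, scored 327, 167 and 104 over the OySyNyK days and ranked only 16 in the whole set by its D1 score. Next came chromosome 10 from 60354665 to 60356382 (319, 179 and 107), with an iPSC peak of 96.0 and an OSNK D1 peak only 114 bp away. On chromosome 5, positions 119261750 to 119263758 scored 302, 200 and 86.8 and had a MEF peak of 150. The list ends with chromosome 4 from 150624182 to 150625517 (289, 132 and 109) and chromosome 17 from 84467701 to 84468638 (253, 121 and 86.6), the latter with peaks of 95.9 in MEF and 57.8 in iPSC. The first of the corresponding OSNK peaks ranked 3 in its set.

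Regions of 100 kb were ranked by the surplus of specific peaks. Of 18213 with a D1 peak, 10787 held more OSNK-specific and 4212 more OySyNyK-specific peaks, and 3214 held equal numbers. A surplus of 5 or more was seen in 1188 and 336. These counts are from the full lists, with 41869 OSNK-specific and 25050 OySyNyK-specific peaks. A larger set leads in more windows, and this was not separated. The largest OSNK surplus was on chromosome 3 from 141900001 to 142000000, with 18 OSNK-specific peaks and 1 OySyNyK-specific peak. Peaks covered 21.7%, 19.2% and 8.51% of it at OSNK D1, D3 and D5 and 10.46%, 4.38% and 3.57% on the OySyNyK days. MEF cover was 8.70% and iPSC cover 0.404%. Of its 18 specific peaks 12 were present at OSNK D3 and none at OySyNyK D3 or D5.

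The next OSNK regions differed in how long they lasted. Chromosome 2 from 117400001 to 117500000, with 16 against 1, had 11.2% cover at OSNK D1 and only 3.47% and 2.19% after it. Chromosome 8 from 105200001 to 105300000, with 15 against 1, went from 15.1% to 7.90% and 2.41%. Both were much lower on the later days than at D1. Chromosome 19 from 28400001 to 28500000, also 15 against 1, kept 18.4%, 19.02% and 12.6%, and chromosome 2 from 52800001 to 52900000, with 16 against 3, had 25.3%, 45.5% and 31.8%. iPSC cover of all 5 was 4.24% or less, and at 2 of them the iPSC list had no peak.

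Regions with an OySyNyK surplus held fewer specific peaks and more iPSC cover. Chromosome 4 from 134600001 to 134700000 had 10 OySyNyK-specific peaks and no OSNK-specific one, and cover of 16.5%, 11.5% and 9.91% over the OySyNyK days, 9.31%, 9.67% and 7.39% with OSNK, 9.11% in MEF and 11.8% in iPSC. On chromosome 10, 76600001 to 76700000 had 13 against 3, and on chromosome 14, 26400001 to 26500000 had 11 against 1, with iPSC cover of 6.11% and 11.3%. On chromosome 4, 43400001 to 43500000 had 9 against 0. The last, chromosome 4 from 151800001 to 151900000, also 9 against 0, had more cover on each later day, with 9.604%, 12.8% and 17.7% over the OySyNyK days and 19.5% in iPSC. OSNK cover there was 1.84%, 5.79% and 6.07%, and MEF cover 4.68%. iPSC cover of the 5 was 6.11% or more, above the highest value of the OSNK regions. MEF cover of the 5 ranged from 4.68% to 21.5%, and that of the OSNK regions from 5.39% to 11.1%. The OySyNyK regions on chromosome 14 and on chromosome 4 from 43400001 had MEF cover of 17.1% and 21.5%, above every OSNK region. Higher cover was thus not limited to iPSC.

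The comparison was repeated with equal numbers of peaks. Taking the 100951 best-scoring peaks of each D1 list removed the OSNK peaks with scores below 58.9 and left 31550 OSNK-specific (31.3%) and 29771 OySyNyK-specific peaks (29.5%). Median scores were 83.2 and 67.7, against 151 and 120 for shared peaks, and median distances to a shared peak 7002 and 4626 bp. The specific shares of the methods were thus much closer than the 36.0% and 24.8% of the full lists. Presence in the later lists was 43.9% and 30.7% for OSNK-specific peaks with OSNK and 17.9% and 10.7% with OySyNyK. For OySyNyK-specific peaks it was 49.0% and 33.9% with OySyNyK and 32.3% and 34.0% with OSNK. iPSC shares were 4.73% and 15.1%. Other settings moved them more. With peaks within 1 kb counted they were 8.64% and 23.4%, and with a score of at least 100 in all 8 lists 1.35% and 8.41%. That cut also shortened the iPSC list, with its median score of 71.0. It left 24094 OSNK-specific peaks, where 10297 of the main set scored 100 or more. Main-set peaks in the score ranges from 100 up gave iPSC shares of 4.36% to 7.96% and of 23.0% to 54.5%.

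With the 70592 best-scoring peaks of each of the 6 intermediate lists, 31.2% of OSNK and 29.8% of OySyNyK D1 peaks were specific. The OSNK-specific peaks were then present to 47.2% and 31.0% in the later OSNK lists and to 18.4% and 15.0% in the later OySyNyK lists. OySyNyK-specific peaks were present to 51.5% and 42.6% in the later OySyNyK lists and to 36.1% in each later OSNK list. MEF shares were 28.3% and 31.9%, and iPSC shares were 5.53% and 17.7%. The other method's later lists took up more of the OySyNyK-specific than of the OSNK-specific peaks under each of the 8 alternatives, with at least 1 such list holding 34.7% to 48.0% against 12.1% to 25.4%.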

How the data were processed

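The deposited files are peak lists with 1 list per library, and a score for each peak. The tools listed, per the submitters' processing notes, are Bowtie and MACS, without versions, settings or a control library; the builds named there, hg18 and NCBI36, are human, while the lists hold mouse chromosomes 1 to 19 and X. General knowledge of chromosome lengths points to mm9. The reference tables used here are of another assembly, so no peak was given a gene or a sequence. The score is deposited by the authors as it stands and was not rescaled. No header names its scale; on the usual MACS scale of -10 times the log10 of a p-value, the lowest score of 50 would be 1e-05. Depth is not known from these files.

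Overlaps of at least 1 bp, distances and windows were computed with Python 3.11.15, numpy 2.4.6 and pandas 2.3.3, exact intervals with scipy 1.17.1 and figures with matplotlib 3.10.9. The functions were tested on simulated lists, and 14 counts were checked against bedtools 2.31.1 with 0 differences. Intervals of differences are exact given the peaks found in 1 of the 2 lists. Windows count a peak at its midpoint. Equal numbers keep the best-scoring peaks. Named regions were the 5 highest-scoring peaks of each specific set, the 5 highest-scoring ones kept by their own method only, and the 5 windows of 100 kb with the largest surplus each way. The members and all lists were chosen with earlier results of these data known; ranges of score, density and distance were chosen after seeing the data. Alternatives were overlap over 50% or more of its length, a 1-kb gap, a score of at least 100, both kinds of equal numbers, peaks of 500 bp, these with equal numbers, and autosomes only. The planned gene lists were left out for want of an annotation of the same build.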

Additional observations from a re-analysis of the deposited data

Results flagged for a closer look

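Over the same 25050 OySyNyK-specific D1 peaks, presence moved in opposite directions from D3 to D5 in the 2 methods: it changed by 2.62 percentage points in the OSNK lists and by -14.9 points in the OySyNyK lists. With 1 library for each method and day the difference was not tested.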

How the results depend on the processing

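The values below are given in a fixed order: the specific share of the OSNK and the OySyNyK list (percent), the specific to shared ratio of median width for OSNK and OySyNyK, the same ratio of median score, then own minus other method presence (percentage points) of OSNK-specific peaks at D3 and D5 and of OySyNyK-specific peaks at D3 and D5. When 50% or more of the peak had to overlap, they were 38.6, 26.5, 0.767, 0.809, 0.528, 0.583, 24.2, 16.9, 16.7 and 0.823. With peaks within 1 kb counted they were 28.9, 18.3, 0.758, 0.809, 0.555, 0.612, 23.2, 19.96, 21.8 and 3.15. For scores from 100 up they were 39.6, 22.5, 0.793, 0.856, 0.578, 0.671, 21.5, 12.7, 16.8 and -0.944. With equal numbers from the D1 lists they were 31.3, 29.5, 0.764, 0.790, 0.550, 0.565, 26.0, 20.01, 16.8 and -0.0470. With equal numbers from all 6 lists they were 31.2, 29.8, 0.795, 0.823, 0.590, 0.607, 28.8, 15.997, 15.4 and 6.47. Peaks of 500 bp have no width ratio and gave 37.8, 27.7, 0.522, 0.593, 19.3, 17.3, 19.98 and -0.543, and with equal numbers from all 6 lists as well 33.5, 33.0, 0.603, 0.620, 24.5, 14.8, 17.2 and 4.63. On autosomes only, each of the 10 values stayed within the counting interval of the value reported.

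The OySyNyK-specific difference at D5 changed sign in 3 of 8 alternatives. The D3 to D5 change of these peaks in the OSNK lists did so in 1 of 8, to -0.917 with a score of at least 100. That setting cuts all 8 lists and redefines the specific sets. Within the score ranges of the full lists the D3 to D5 change kept its sign. The cause of the sign changes was not tested. The other own minus other differences kept their sign in all 8. Of the further values, 74 stayed within the counting interval, 156 moved and 1 changed sign. Ratios of OSNK-specific to OySyNyK-specific peaks passed below 1 with both kinds of equal numbers in windows of 80 or more shared peaks (0.702 and 0.587) and on chromosome 11 (0.757 and 0.748). The limits are 1 library a side, unknown depth, an iPSC sample titled with the OySyNyK factors and a list that is longer on the OSNK side. A peak missing from a list may lie just under the score threshold. No paired analysis was possible because each group has 1 library.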
